A study of Mus musculus with 6 samples.

Results

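The genes described here are 7 genes of MHC class II antigen presentation, H2-Aa, H2-Ab1, H2-Eb1, H2-DMa, H2-DMb1, Cd74 and Ciita, out of 55335 genes in the count table. They were chosen by gene symbol, and each symbol matched 1 row. Total RNA was sequenced from bone marrow-derived macrophages (BMDMs) of C57BL/6 mice, in 3 libraries from cells given PBS and 3 libraries from cells given lipopolysaccharide (LPS), a bacterial cell wall component sensed by TLR4, all collected after 1 h. The experiment asked how LPS changes transcription at this early time, and the study used it to find enhancers that are transcribed into RNA. All 6 libraries came from wild-type cells. The study's methods describe young adult male mice, marrow from femur and tibia, and growth in medium conditioned by L929 cells, a source of the macrophage growth factor M-CSF. The labels give no LPS dose and do not say whether the replicates came from separate mice or cultures, so p-values measure the spread between these libraries only.

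MHC class II molecules display peptides from engulfed material to CD4+ T cells. Their alpha and beta chains assemble on the invariant chain Cd74, which blocks the groove until it is cut away, and the DM molecule then exchanges the remaining fragment for a peptide. Transcription of these genes depends on Ciita, a coactivator that does not bind DNA itself but docks on a protein complex of RFX, CREB and NF-Y at the X and Y boxes of their promoters. Macrophages are known for low resting levels that rise when interferon gamma induces Ciita.

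Library totals were 37787611 to 41516330 counts, and a floor of 3 counts corresponded to 0.0630 to 0.0919 CPM (counts scaled to a common library total, here scaled by TMM factors, which correct for differences in RNA composition). The 7 genes together held 0.172% to 0.182% of the counts in PBS libraries and 0.226% to 0.242% in LPS libraries. The scaling matters for every fold change, because the TMM factors were 1.15 in the PBS libraries and 0.864 to 0.872 in the LPS libraries. Scaling by library size alone shifted the median of all tested genes by -0.40 on the log2 scale. Tnf, a direct TLR4 response gene, rose from 20.2 ± 1.19 to 2302 ± 49.8 CPM (SD, n = 3 per group), matching the LPS label in each library. All 10 macrophage markers were detected, with a summed level of 32604 to 33957 CPM in PBS and 35880 to 36245 CPM in LPS libraries. Most of this sum was Lyz2, with 23272 ± 481 CPM in PBS and 24224 ± 237 CPM in LPS. Replicates of a group differed by more than sampling noise, so no library was a copy of another.

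To show the promoter elements that this complex is known to recognise, a stretch upstream of the RefSeq start site is given for the alpha chain gene H2-Aa and the beta chain gene H2-Eb1, read 5′ to 3′ on the gene's strand from position -120 to -21 (RefSeq, GRCm38.p6, with -1 the base before the start). Capitals mark matches to the X box core ACNGATG, the cyclic AMP response element TGACGTCA and the Y box ATTGG, searched on both strands, so that CCAAT in capitals is a Y box on the other strand. No 2 matches overlap here.
H2-Aa, chr17:34287844-34287943, minus strand: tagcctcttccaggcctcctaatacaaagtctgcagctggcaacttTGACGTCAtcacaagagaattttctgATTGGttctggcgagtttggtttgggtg
H2-Eb1, chr17:34305747-34305846, plus strand: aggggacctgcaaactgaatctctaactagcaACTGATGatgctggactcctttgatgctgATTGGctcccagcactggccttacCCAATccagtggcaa

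In H2-Eb1, the X box core began at -88 and was followed by a Y box after 22 bases, with a second Y box on the other strand at -35. H2-Aa held no match to the letters ACNGATG on its own strand. An X box with other letters would be missed by this search, so its absence is not shown. A match to these letters lay outside the stretch shown, on the other strand at -232. Within the stretch, H2-Aa held a cyclic AMP response element at -74 and a Y box at -48. H2-DMb1, which encodes the beta chain of DM, held the X box core as actgatg at -91 and a Y box after 23 bases. Of the 2 RefSeq windows of H2-DMa, which encodes the DM alpha chain, 1 held no match and the other held a Y box at -198. These windows lie at chr17:34122582-34122881 and chr17:34125268-34125567. Any other start site of H2-DMa was not searched, so the lack of an X box core there says nothing of the gene's other promoters. Windows were matched for 4 of the 7 genes, and none was used for H2-Ab1, Cd74 or Ciita. Among all 32851 promoter windows of the same length, 9.85% held the X box core, 1.79% the cyclic AMP response element and 37.4% the Y box. An X box core followed on the gene's strand by a Y box within 5 to 30 bases was found in 36 windows, or 0.11%. Of these, 4 belonged to the class II genes H2-DMb1, H2-DMb2, H2-Eb1 and H2-Eb2, and 5 to the class I genes H2-D1, H2-Q4, H2-Q6, H2-Q7 and H2-M3. The letters and the spacing were chosen with these windows in view, so the shares are a description only.

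Transcripts of the class II chains and of the invariant chain rose within 1 h of LPS, while the transcript of their coactivator Ciita fell. H2-Ab1 rose 2.21-fold, H2-Eb1 1.89-fold, H2-Aa 1.81-fold and Cd74 1.72-fold, and Ciita fell to 0.66 of its level in PBS. Of the DM genes, H2-DMb1 rose 1.35-fold under TMM scaling but not with library size alone, and H2-DMa did not pass the test. In all, 5 of the 7 genes were higher and 1 was lower at an adjusted p under 0.05 (edgeR's quasi-likelihood test, Benjamini-Hochberg over 15687 tested genes), against 67.7% of all tested genes, 32.9% higher and 34.9% lower. The share of the 7 genes that passed was thus near the background, and the median log2 fold change was 0.79 over the 7 genes and -0.01 over all tested genes. When an absolute log2 fold change above 1 was also required, H2-Ab1 alone passed, against 20.9% of all tested genes and 10.5% in its direction. The CPM values of the 2 groups did not overlap for any of the 7 genes, against 70.5% of tested genes without overlap, and LPS was the higher group for 6 of them, against 33.9%. With library size alone, 4 genes were higher and 2 lower, against 15.0% of all tested genes higher and 65.9% lower on that scale. Ciita, at 0.498 of its level in PBS, then alone passed both criteria, against 26.6% of tested genes, while H2-Ab1 had a log2 fold change of 0.74. Fewer cells that carry a transcript and less of it per cell cannot be told apart in these bulk libraries.

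**Figure D1:**
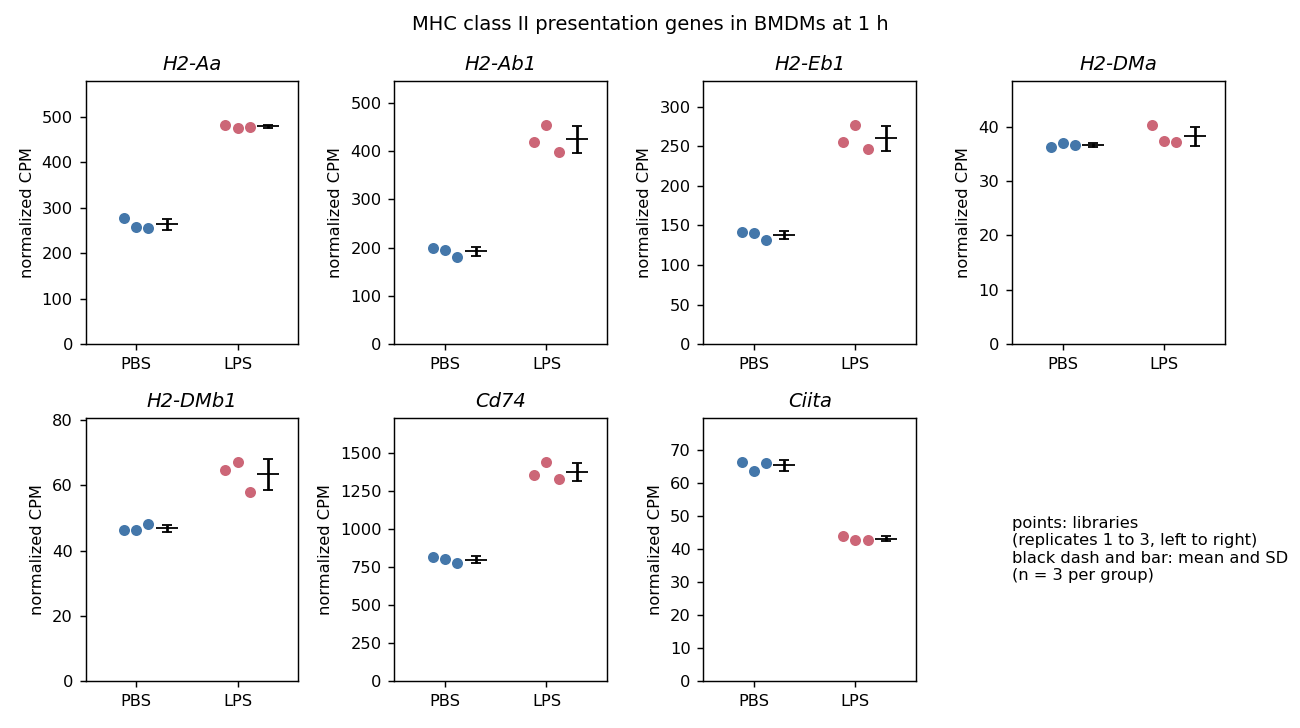
Normalized CPM of the 7 genes in each library, with PBS in blue and LPS in red, points in the order of replicates 1 to 3, and the mean with its SD beside them (n = 3 per group). The LPS points lie above the PBS points for every gene except Ciita, where all 3 lie below, and for H2-DMa the groups are separated by less than the spread of the LPS points.

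H2-Ab1 encodes the beta chain of the I-A molecule and lies on the plus strand at chr17:34257689-34269419 (GENCODE M21 on GRCm38, as for all positions of genes). It held 199, 196 and 180 CPM in PBS replicates 1 to 3 and 419, 454 and 398 CPM in LPS replicates 1 to 3. Every LPS library stood far above every PBS library. The log2 fold change was 1.14 (SE 0.05, 95% interval 1.05 to 1.24, adjusted p = 1.72e-13 by edgeR), higher than that of 90.6% of tested genes.

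H2-Aa encodes the alpha chain that pairs with it and lies on the minus strand at chr17:34282744-34287823. Its level was 278, 258 and 256 CPM in PBS and 482, 476 and 478 CPM in LPS libraries. The groups were far apart, and the LPS libraries lay within a few CPM of each other. This gave a log2 fold change of 0.86 (SE 0.04, 95% interval 0.78 to 0.93, adjusted p = 3.25e-13 by edgeR). The interval lies below that of H2-Ab1, the partner chain.

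H2-Eb1, the beta chain of the I-E molecule, lies on the plus strand at chr17:34305867-34316674. It held 142, 140 and 132 CPM in PBS and 256, 277 and 247 CPM in LPS libraries. The highest PBS library stood well under the lowest LPS library. The log2 fold change was 0.92 (SE 0.04, 95% interval 0.83 to 1.01, adjusted p = 1.20e-12 by edgeR). Its partner chain gene H2-Ea has no row under that symbol, and the pseudogene H2-Ea-ps had 2 counts in PBS replicate 1 and 0 counts in the other libraries, which allows up to 3 counts in each. The C57BL/6 strain is known to lack a functional I-E alpha chain.

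Cd74, the invariant chain, had the highest level of the 7 genes and lies on the plus strand at chr18:60803848-60812652. Its values were 817, 800 and 775 CPM in PBS and 1353, 1443 and 1331 CPM in LPS libraries. No LPS library came near the PBS range. On the log2 scale, the fold change was 0.79 (SE 0.04, 95% interval 0.71 to 0.87, adjusted p = 2.13e-12 by edgeR).

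H2-DMb1 lies on the plus strand at chr17:34153072-34160230. It held 46.2, 46.3 and 48.1 CPM in PBS and 64.7, 67.3 and 58.0 CPM in LPS libraries. The groups did not overlap, and LPS replicate 3 was the lowest of its group. The log2 fold change was 0.43 (SE 0.05, 95% interval 0.33 to 0.54, adjusted p = 3.35e-07 by edgeR), and 0.03 (adjusted p = 0.572) with library size alone, so its rise depended on the scaling. Of its transcript sequence, 22.7% of stretches of 50 bases are shared with the neighbouring copy H2-DMb2, so reads between these genes are uncertain.

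H2-DMa lies on the plus strand at chr17:34119541-34139101. Its values were 36.2, 36.9 and 36.6 CPM in PBS and 40.3, 37.3 and 37.2 CPM in LPS libraries. LPS replicate 1 was the highest, and the other LPS libraries stood less than 1 CPM above the highest PBS library. The log2 fold change was 0.06 (SE 0.04, 95% interval -0.03 to 0.16, adjusted p = 0.212 by edgeR). With library size alone, it was -0.34 (adjusted p = 2.39e-06), a fall in place of no call. Its exons share 360 bp, or 10.4% of their length, with Brd2 on the opposite strand, and the strand setting of the counting is not given in the sources used here.

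Ciita lies on the plus strand at chr16:10480059-10528418. It held 66.5, 63.5 and 66.1 CPM in PBS and 44.0, 42.8 and 42.7 CPM in LPS libraries. All LPS libraries were lower than all PBS libraries, with a spread within each group that was small beside the gap. The log2 fold change was -0.60 (SE 0.04, 95% interval -0.68 to -0.52, adjusted p = 1.79e-10 by edgeR), and 18.8% of tested genes had a lower value. The raw counts also fell, from 3167, 2870 and 3052 in PBS to 1476, 1397 and 1452 in LPS libraries, and the direction held under each scaling tried. Its exons share 329 bp, or 3.45% of their length, with Dexi on the opposite strand.

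To compare levels between genes, CPM was divided by the length of each gene's annotated exons in kb (RPKM). In PBS, Cd74 stood highest with 475 ± 12.5 RPKM, followed by H2-Ab1 with 74.7 ± 3.85, H2-Eb1 with 70.9 ± 2.71 and H2-Aa with 69.6 ± 3.18 RPKM (SD, n = 3). The 3 chains did not differ beyond their spread. H2-DMb1 with 27.9 ± 0.647, H2-DMa with 10.6 ± 0.0942 and Ciita with 6.86 ± 0.171 RPKM followed, each clear of its neighbours. In LPS, the order of the 7 genes was the same, with 819 ± 35.4 RPKM for Cd74, 165 ± 10.9 for H2-Ab1, 134 ± 7.98 for H2-Eb1 and 126 ± 0.719 for H2-Aa, of which H2-Eb1 and H2-Aa did not differ beyond their spread. H2-DMb1 had 37.7 ± 2.86, H2-DMa 11.1 ± 0.520 and Ciita 4.53 ± 0.0760 RPKM. These lengths take in every annotated exon, so genes with rarely used exons read too low on this scale.

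Next, each gene was set against Cd74 within its own library, a ratio of counts that does not depend on the scaling between libraries and is not corrected for length. The counts of Ciita were 8.14%, 7.94% and 8.53% of those of Cd74 in PBS and 3.25%, 2.97% and 3.21% in LPS libraries, a change of -1.39 in the log2 ratio. H2-DMa went from 4.44%, 4.61% and 4.71% to 2.98%, 2.58% and 2.79% (log2 change -0.72), and H2-DMb1 from 5.65%, 5.79% and 6.20% to 4.78%, 4.67% and 4.36% (log2 change -0.35). Relative to Cd74, both DM genes and Ciita were thus lower in every LPS library than in any PBS library. Cd74 itself had a log2 fold change above that of 87.3% of tested genes, so a fall relative to it is not particular to these genes. The share of all genes without overlap was not computed for this ratio. H2-Ab1 was higher in every LPS library, at 30.9%, 31.4% and 29.9% against 24.3%, 24.5% and 23.3% (log2 change 0.36), and H2-Eb1 likewise, with log2 ratios of -2.40, -2.38 and -2.43 against -2.53, -2.51 and -2.56 (log2 change 0.13). The H2-Aa ratio overlapped between the groups, at 34.0%, 32.3% and 33.0% in PBS and 35.6%, 33.0% and 35.9% in LPS libraries (log2 change 0.07, p = 0.30 by an exact two-sided permutation test). For the other 5 ratios the exact permutation test gave p = 0.10, the smallest value that 3 libraries against 3 allow, and 0.12 after Benjamini-Hochberg adjustment over 6 ratios. With the sum of H2-Aa and H2-Ab1 counts as the denominator, the H2-Eb1 ratio changed direction, to -0.07, with overlapping groups.

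**Figure D2:**
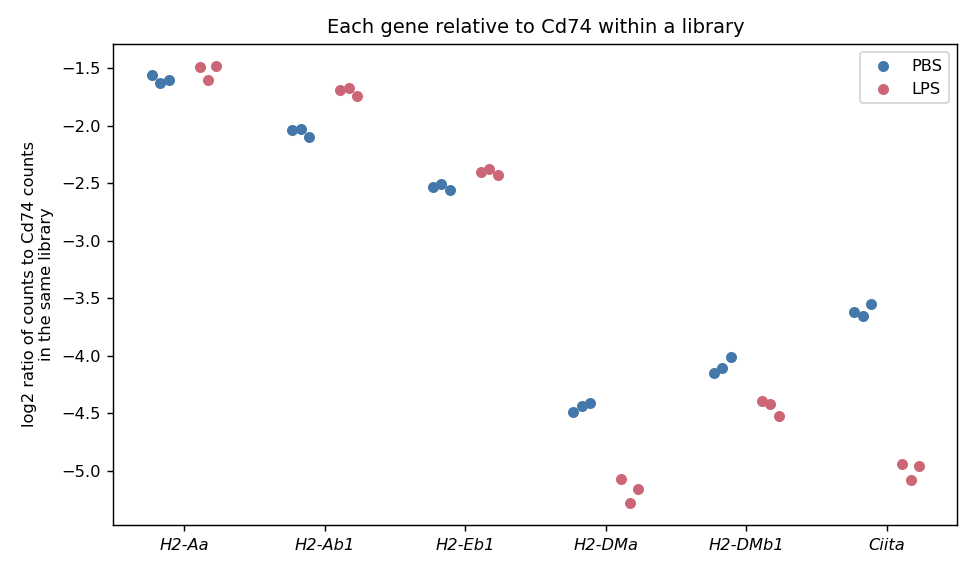
Log2 ratio of the counts of each gene to the counts of Cd74 in the same library, with PBS in blue and LPS in red (3 libraries each, replicates 1 to 3 from left to right). Ciita shows the widest gap, -1.39 on the log2 scale, followed by H2-DMa with -0.72, while H2-Aa overlaps between the groups.

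The remaining class II genes were scarce in these cells. Of 6 listed, 3 could be tested, with a median log2 fold change of 0.93 (-0.01 over all tested genes). Of these 3, 2 were higher and none lower, against 32.9% and 34.9% of all tested genes. H2-Ob, which encodes a chain of the DM inhibitor DO, had 32, 41 and 36 counts in PBS and 84, 79 and 88 counts in LPS libraries, all LPS values above all PBS values. Its log2 fold change was 1.67 (SE 0.17, adjusted p = 9.36e-08 by edgeR), past both criteria. H2-Oa, the other chain of DO, had 14, 12 and 13 counts in PBS and 23, 19 and 12 counts in LPS libraries, and its log2 fold change was 0.93 (SE 0.32, adjusted p = 0.0171 by edgeR). That call was lost with DESeq2 (adjusted p = 0.0638), with library size alone (0.140), without LPS replicate 1 (0.107) and without LPS replicate 2 (0.0549). H2-DMb2 had a log2 fold change of -0.11 (SE 0.23, adjusted p = 0.699 by edgeR) and less than 1 CPM on average in either group. H2-Eb2 was not tested, with 6, 5 and 7 counts in PBS and 18, 8 and 15 counts in LPS libraries.

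On chromosome 17, the class II genes lie among genes of class I processing. Between H2-Oa and H2-Eb2, the annotation holds 21 genes, of which 15 were tested, 8 rose and 3 fell (5 and 5 with library size alone). The 7 tested genes of this region that belong to no class II list had a median log2 fold change of -0.16. Of these, 2 were higher and 3 lower (1 higher and 4 lower with library size alone). Over all tested genes, 32.9% were higher and 34.9% lower, and 15.0% and 65.9% with library size alone. The counts outside the class II lists were thus near these shares. The genes that fell were all of class I processing, namely Tap1 with a log2 fold change of -0.42 (SE 0.03, adjusted p = 3.97e-09 by edgeR) and the immunoproteasome subunits Psmb9 with -0.36 and Psmb8 with -0.16. Tap2, also of class I processing, did not pass the test (0.07, SE 0.05, adjusted p = 0.213 by edgeR). With library size alone it was called lower (-0.34, adjusted p = 4.58e-06 by edgeR). Of the 2 that rose, Brd2, a bromodomain reader of acetylated histones on the minus strand next to H2-DMa, had a log2 fold change of 0.90 (SE 0.03, adjusted p = 4.40e-14 by edgeR). The other, CR974462.3, is an annotated antisense RNA with 5 to 16 counts per library, 2.25-fold higher in LPS (SE of the log2 value 0.37, adjusted p = 0.0100 by edgeR). Its call was lost with library size alone (adjusted p = 0.0662) and without PBS replicate 3 (0.0532). CR974462.3 lies within the span of Brd2 on the opposite strand. Reads from both strands may be mixed in it, so the 2 rises may not be independent. The lowest value in the region was -0.55 for the noncoding Gm15821, which did not pass the test (adjusted p = 0.328) and changed sign without PBS replicate 3. Some of these names were singled out after their values were seen.

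**Figure D3:**
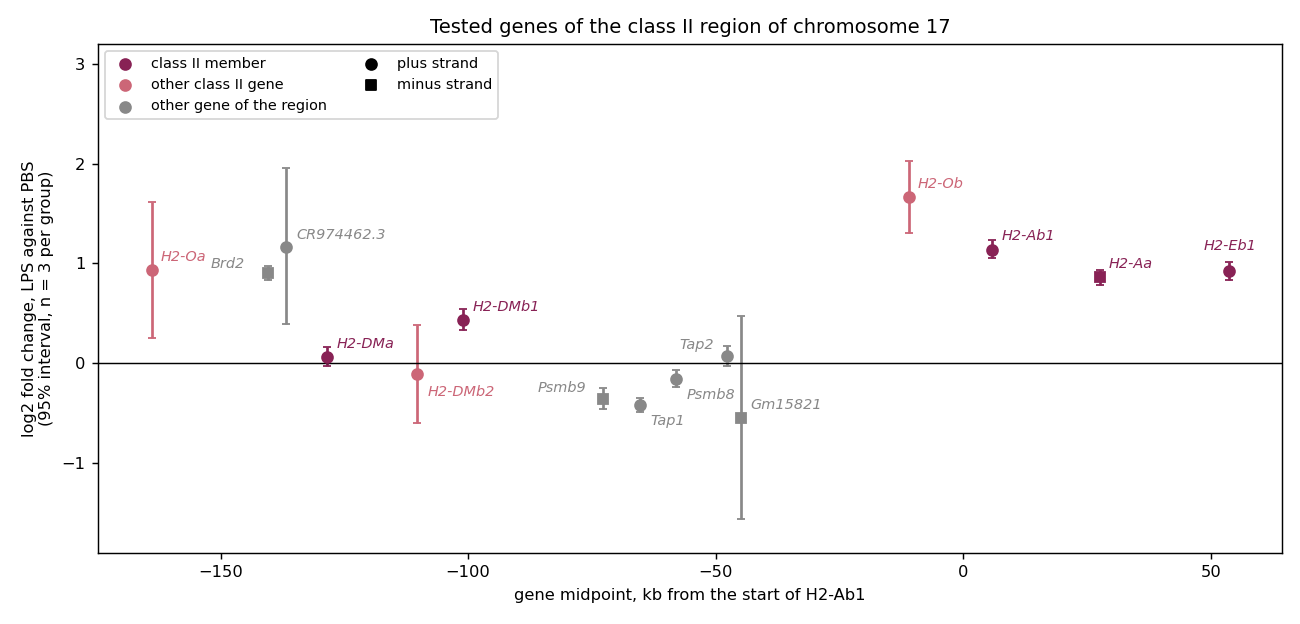
Log2 fold change (LPS against PBS, with 95% interval, n = 3 per group) of the 15 tested genes of the class II region, placed by the distance of the gene's midpoint from the start of H2-Ab1 in kb, with circles for the plus and squares for the minus strand. H2-Ab1, H2-Aa and H2-Eb1 stand between 0.86 and 1.14 on the right, and Tap1, Psmb9 and Psmb8 lie below 0 between them and the DM genes.

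The genes of the complex on which Ciita docks were then examined. Of 7 genes for RFX, CREB and NF-Y subunits, 5 were higher and 2 lower, with a median log2 fold change of 0.25. With library size alone, 2 were higher and 4 lower, with a median of -0.16. The shares of all tested genes were 32.9% higher and 34.9% lower, and 15.0% and 65.9% with library size alone. Creb1, the cyclic AMP response element binding protein, went from 71.4 ± 2.59 to 121 ± 4.69 CPM (log2 fold change 0.76, SE 0.04, adjusted p = 6.85e-12 by edgeR). The RFX subunits did not move together. Rfx5, the DNA-binding subunit, had a log2 fold change of 0.59, while Rfxap had -0.58 and Rfxank -0.37, and these 3 directions held under each scaling tried. Of 4 coactivators that work with Ciita, 2 were higher and 1 lower, with a median of 0.22. With library size alone none was higher and 2 were lower, to be read against the same shares. The coactivators ranged from the histone acetyltransferase Crebbp, with 0.47 (0.07 and no longer past the threshold with library size alone), to its relative Ep300, with -0.24.

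Genes known to induce or silence Ciita had widely spread values. Of 12 tested among 13 listed, 7 were higher and 3 lower, with a median log2 fold change of 0.22. With library size alone, 5 were higher and 7 lower. Among all tested genes, 32.9% were higher and 34.9% lower, and 15.0% and 65.9% with library size alone. Prdm1, which encodes Blimp-1, known as a repressor of Ciita in plasma cells, rose from 751, 786 and 786 counts in PBS to 8934, 8957 and 9196 counts in LPS libraries (log2 fold change 4.01, SE 0.04, adjusted p = 2.61e-22 by edgeR). Jak2 and Irf1, which act in interferon gamma signalling toward Ciita, rose by log2 fold changes of 3.31 (SE 0.04) and 2.12 (SE 0.04). These 3 genes passed both criteria on every scale tried. Usf1, which binds the interferon-responsive promoter of Ciita, fell by 1.27 on the log2 scale (SE 0.05, adjusted p = 7.13e-14 by edgeR). Irf8, a myeloid transcription factor, fell by 0.80. The receptor chain gene Ifngr1 had a log2 fold change of 0.65. Transcripts of interferon gamma itself were at the floor, with 2 counts of Ifng in LPS replicate 1 and 0 counts in the other 5 libraries. Irf8, Ifngr1, Rfx5 and Rfxank were named after their values were seen.

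Genes that cut antigens and the invariant chain had log2 fold changes of -0.06 to 0.32. Of 7, 4 were higher, none was lower and 3 did not pass the test, with a median of 0.10. All 7 were lower with library size alone (median -0.30, against -0.42 for all tested genes). All tested genes were higher in 32.9% and lower in 34.9%, and in 15.0% and 65.9% with library size alone. The highest was Sppl2a, the protease that clears the last invariant chain fragment (-0.08 with library size alone), and the lowest the lysosomal protease Ctsd (adjusted p = 0.0749 by edgeR). Ctsd passed the test as lower with library size alone (log2 fold change -0.46, adjusted p = 5.26e-11) and with upper quartile scaling (-0.20, adjusted p = 4.82e-06). Ctss, which makes the final cuts in the invariant chain, had 4907 ± 19.7 CPM in PBS and 5273 ± 94.9 CPM in LPS (log2 fold change 0.10, SE 0.03, adjusted p = 0.00373 by edgeR), but -0.30 with library size alone. It was named after its value was seen.

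The genes that set how long class II molecules stay on the surface moved in opposite directions. Cd83, which shields class II molecules from ubiquitination, rose from 77.8 ± 4.04 to 1885 ± 54.0 CPM (log2 fold change 4.60, SE 0.05, adjusted p = 1.49e-22 by edgeR). March1, the ubiquitin ligase that marks surface class II molecules for removal, fell from 93.7 ± 2.65 to 43.8 ± 1.88 CPM (log2 fold change -1.10, SE 0.04, adjusted p = 4.92e-14 by edgeR). Its relative March8 fell by 0.18. All 3 directions held under each scaling tried.

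For comparison, 12 genes of class I presentation, which serves CD8+ T cells, had a median log2 fold change of 0.07. Of these, 6 were higher, 3 lower and 3 not past the threshold, and none passed both criteria. All 12 were lower with library size alone (median -0.33, against -0.42 for all tested genes). The corresponding shares of all tested genes were 32.9% higher and 34.9% lower, and 65.9% lower with library size alone. The list's values ranged on both sides of 0 under TMM scaling. The values ran from 0.32 for H2-K1, a class I heavy chain (-0.09 with library size alone), to -0.42 for Tap1, the peptide transporter subunit named above. Nlrc5, the class I counterpart of Ciita, had 120 ± 2.21 CPM in PBS and 120 ± 6.08 CPM in LPS (log2 fold change -0.01, SE 0.04, adjusted p = 0.891 by edgeR), and was named after its value was seen. It passed the test as lower with library size alone (-0.41, adjusted p = 3.14e-08) and with upper quartile scaling (-0.15, adjusted p = 0.00203). Under TMM scaling its 95% interval lay above that of Ciita. No test of the difference between class I and class II genes was run.

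**Figure D4:**
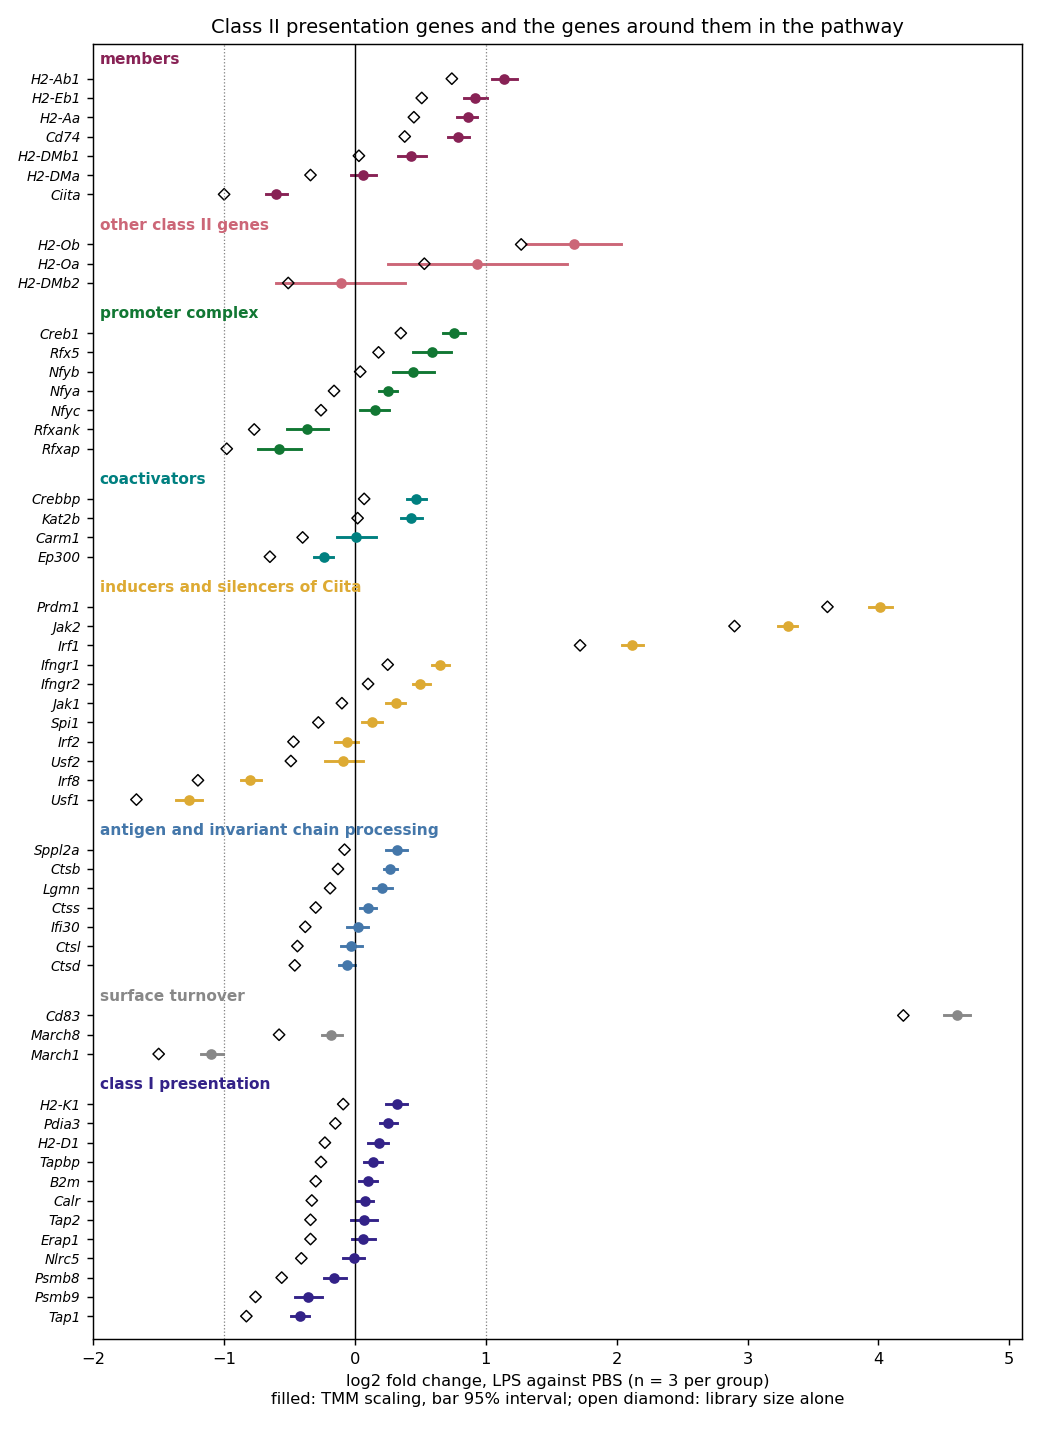
Log2 fold changes (LPS against PBS, n = 3 per group) of the 7 genes and of pathway genes from 7 lists, as filled points with 95% intervals under TMM scaling and as open diamonds for library size alone, with dotted lines at -1 and 1. Cd83 (4.60), Prdm1 (4.01), Jak2 (3.31) and Irf1 (2.12) lie far to the right, Usf1 (-1.27) and March1 (-1.10) to the left, and the diamonds of most class I and processing genes lie on the other side of 0 from their points.

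Markers of other cells that express class II genes were measured in the same libraries. The 10 dendritic cell markers summed to 95.1 to 104 CPM in PBS and 109 to 111 CPM in LPS libraries, most of it Itgax, which macrophages also express. Of these 10, 7 were higher and 1 lower in LPS, against the 32.9% and 34.9% of all tested genes given above. With library size alone 5 were higher and 2 lower, against 15.0% and 65.9% of all tested genes. The 7 that rose were scarce, with Zbtb46 at 18 to 19 counts in PBS and 67 to 87 counts in LPS libraries (log2 fold change 2.50, SE 0.20), Flt3 with a log2 fold change of 1.63 (SE 0.17) and Xcr1 at 1 to 2 counts in PBS and 15 to 27 counts in LPS libraries. These were the largest rises of the list, named after their values were seen. Batf3 fell from 146, 166 and 168 counts in PBS to 57, 92 and 66 counts in LPS libraries (log2 fold change -0.69, SE 0.16, adjusted p = 0.000986 by edgeR). Itgax and Clec9a did not pass the test (adjusted p = 0.274 and 0.0914 by edgeR). Cd209a and Xcr1 stayed under 1 CPM in every library. Their part in the rise of the class II genes was not tested. The B cell list stood at 115 to 119 CPM in PBS and 103 to 108 CPM in LPS libraries and was carried by Ighm, while 6 of its 8 genes were under 1 CPM in every library. Of its 4 tested genes, 1 was higher and 1 lower in LPS, and with library size alone none was higher and 2 were lower, against the same shares. Ighm was the lower gene (log2 fold change -0.14, SE 0.03, adjusted p = 0.00118 by edgeR). Ms4a1, under 1 CPM, was the higher gene (log2 fold change 0.74, SE 0.30, adjusted p = 0.0380 by edgeR). Its call was lost with library size alone (adjusted p = 0.304 by edgeR). Cd79b stood at 1.59 to 2.31 CPM (adjusted p = 0.439 by edgeR). The T cell list, at 20.6 to 22.6 CPM in PBS and 30.8 to 31.1 CPM in LPS libraries, was carried by Cd4, with its other 5 genes under 1 CPM. The neutrophil list stood at 40.8 to 43.6 CPM in PBS and 52.7 to 56.8 CPM in LPS libraries. Of its 6 tested genes, 3 were higher in LPS and none lower, against 32.9% and 34.9% of all tested genes. With library size alone none was called, against 15.0% higher and 65.9% lower. The 3 were led by S100a8 (log2 fold change 0.40, SE 0.07) and S100a9 (0.37, SE 0.07). Raw counts overlapped between the groups, at 491 to 575 in PBS and 479 to 511 in LPS for S100a8. For S100a9 they were 805 to 982 in PBS and 807 to 871 in LPS. Ly6g was at the floor.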

How the data were processed

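Total RNA libraries (TruSeq Stranded Total RNA kit with globin removal, paired-end reads) were aligned by the authors to GRCm38 with HISAT2 2.1.0, handled with SAMtools 1.17, checked with FastQC 0.11.9 and counted per gene with featureCounts 2.0.0, and raw counts without normalization were deposited. The annotation release, strand setting and treatment of multimapping reads are not given in the sources used here. Of 55335 identifiers, 55154 matched GENCODE M21 without their version and 181 had no symbol. The groups came from the treatment labels.

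Counts were tested in R 4.3.3 with edgeR 4.0.16 (filterByExpr, 15687 genes kept, TMM scaling, glmQLFit in its legacy mode, glmQLFTest, Benjamini-Hochberg over all tested genes). Legacy mode was chosen after both modes had been run, and the other mode was added as an alternative after seeing the data. Standard errors and 95% intervals came from the quasi-likelihood F statistic. CPM and RPKM are TMM-scaled. The study's DESeq2 (version 1.42.0 here), limma voom (limma 3.58.1), other scalings, other filters, a replicate block and leaving out each library in turn were alternatives. The functions were checked on simulated counts. Floors cover counting error only, since reads carry no molecular identifiers.

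The labels carry a batch number equal to the replicate number in both groups, so equal numbers pair the libraries. After group means were subtracted, libraries with the same number correlated across genes at -0.0139, 0.0822 and 0.0387, and those with different numbers at -0.0178 on average. The main model has no batch term, and the study's methods mention none.

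The 7 genes, the gene lists and the tests were chosen with earlier results of these data known. Named by rule were the 7 genes, in each list the largest rise, the largest fall and any gene past both criteria, Tnf, and the 5 genes (mean count 50 or more) nearest to Ciita, or to the mean of H2-Aa, H2-Ab1, H2-Eb1 and Cd74, by Euclidean distance of centred log2 CPM (prior count 2). Other names were chosen after their values were seen. Some genes of these lists are counted but not reported here by name or in the plots.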

Additional observations from a re-analysis of the deposited data

How the results depend on the processing

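Library totals and counts do not limit the 7 genes, whose lowest count was above 1000 in every library, whereas H2-Oa, H2-DMb2, CR974462.3 and Gm15821 rest on few counts. The scaling was the choice that changed most, since a shift of all genes cannot be told from the composition of the RNA without a spike-in. Under DESeq2's size factors, upper quartile scaling, no filter on low counts, 10 counts in every library, DESeq2, limma voom, dropping the 10 most abundant genes, edgeR's other mode (added after seeing the data) and the replicate block, 6 of the 7 genes passed the adjusted p and 1 passed both criteria, as in the main model. With the replicate block the log2 fold changes of H2-Ab1, Cd74 and Ciita were 1.14, 0.79 and -0.60, and the block changed 1 call of a named gene, Ctsd (-0.06, adjusted p = 0.0465 by edgeR), which was called lower in 7 of the alternatives. Without each library in turn, the log2 fold change lay between 0.84 and 0.89 for H2-Aa, 1.09 and 1.18 for H2-Ab1, 0.87 and 0.95 for H2-Eb1, 0.02 and 0.08 for H2-DMa, 0.39 and 0.49 for H2-DMb1, 0.75 and 0.81 for Cd74, and -0.62 and -0.59 for Ciita, with no call changed. Library size alone gave -0.34 for H2-DMa and 0.03 for H2-DMb1, by its construction without the composition factors. It also reversed Sppl2a (-0.08), Ctsb (-0.13), Lgmn (-0.19), Ctss (-0.30), Ifi30 (-0.38), Nfya (-0.16), Nfyc (-0.26), Carm1 (-0.40), Jak1 (-0.10), Spi1 (-0.28), H2-K1 (-0.09), H2-D1 (-0.23), B2m (-0.30), Tap2 (-0.34), Tapbp (-0.26), Erap1 (-0.34), Calr (-0.33) and Pdia3 (-0.15). Upper quartile scaling reversed Ctss (-0.04), Ifi30 (-0.12), Spi1 (-0.01), B2m (-0.04), Tapbp (-0.00) and Calr (-0.07). Calr, at an adjusted p of 0.0480 by edgeR, lost its call without any 1 of the 6 libraries. Among genes outside the 7, 25 further values lost and 17 gained a call under an alternative without changing direction. Against the sum of H2-Aa and H2-Ab1 in place of Cd74, the log2 ratio changed by -0.07 for H2-Eb1, -0.92 for H2-DMa, -0.55 for H2-DMb1 and -1.58 for Ciita.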

Other observations

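Across the 6 libraries, the genes nearest to Ciita among 12130 candidates were Gtf2h1 (Euclidean distance 0.0298 in centred log2 CPM), Armc10 (0.0445), Dna2 (0.0476), 2810004N23Rik (0.0538) and Gramd4 (0.0539), with log2 fold changes of -0.58 to -0.60. Among the genes nearest to the mean of H2-Aa, H2-Ab1, H2-Eb1 and Cd74 were C3 (0.0241), the central complement component, Rilpl2 (0.0656), Brd2 (0.0685) and Fam20c (0.0788), with log2 fold changes of 0.89 to 0.93. With 6 libraries in 2 groups, likeness means mainly a similar fold change. Brd2 was thus listed both as a neighbour of H2-DMa on the chromosome and among the genes nearest to the class II chains, at 8160, 7705 and 7740 counts in PBS and 10594, 10672 and 10496 counts in LPS libraries. The antisense RNA Gm20513, which spans part of H2-Eb1 on the other strand without sharing exons with it, had 1, 10 and 2 counts in PBS and 9, 9 and 11 counts in LPS libraries and was not tested.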
